A study of Mus musculus with 18 samples.

Results

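The genes described here are 10 members of the annexin and formyl peptide receptor families, chosen by name: the annexins Anxa1, Anxa2, Anxa3, Anxa4, Anxa5, Anxa6, Anxa7 and Anxa11, and the receptors Fpr1 and Fpr2. All 10 were found among the 49585 genes of the count table and all 10 passed the filter on low counts. The table holds bulk RNA-seq of viable CD45+ leukocytes sorted from Kaede mice, which carry a photoconvertible green-to-red protein, in 18 libraries of 6 groups with 3 libraries each. Light delivered to the tissue marks the cells present there. Red cells found later in the tissue had not migrated, and red cells in the draining lymph node were taken to have left it. The study also reported slightly more red cells in the node shortly after light exposure than without exposure. The study asked which genes differ between cells that stay in an inflamed joint and cells that leave it, with inflamed skin as the comparison site.

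All inflamed mice were Kaede recipients of OT-II Th1 cells, that is, OVA-specific CD4+ T cells polarized in culture. They were immunized with OVA in Complete Freund's Adjuvant and challenged with 100 µg of heat-aggregated OVA in the footpad (joint) or the ear pinna (skin). Each inflamed site gave a nonmigrated and a migrated group, 4 in all. The 2 other groups are labelled as cells migrated to the node at steady state from joint or ear. The joint node titles carry PBS and KG and the skin node titles Naive, which the labels do not explain further. The study's methods name PBS as the alternative to heat-aggregated OVA in the footpad challenge, and the inflamed skin titles carry KR. The sorting protocol shared by all samples names Kaede red cells, but gives no gate for the steady-state groups on their own, so their color gate is uncertain. Whether these mice had received Th1 cells or adjuvant is not given for each group. Each inflamed library was a pool of several mice of both sexes according to the study, so p-values measure the spread between pools. The labels do not say whether libraries of different groups came from the same mice. Bulk RNA cannot tell a smaller number of cells of one type from less RNA per cell.

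Annexins are cytosolic proteins that bind acidic phospholipids of membranes when calcium rises. Anxa1 is induced by glucocorticoids, is abundant in neutrophils and other myeloid cells, and can act outside the cell through formyl peptide receptors to limit neutrophil recruitment and promote clearance of dying cells. Fpr1 and Fpr2 are G protein-coupled chemoattractant receptors of neutrophils, monocytes and macrophages that detect formylated peptides of bacteria and mitochondria. Anxa2 pairs with S100a10 at the membrane and is involved in plasmin formation and membrane repair, and Anxa5 binds exposed phosphatidylserine.

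On GRCm38 (mm10), with GENCODE M21 gene models, Anxa1 lies at chr19:20373428-20390944 on the minus strand and Anxa2 at chr9:69453620-69491795 on the plus strand. Anxa6 lies at chr11:54979108-55033445 on the minus strand. Fpr1 at chr17:17876471-17883940 (minus strand) and Fpr2 at chr17:17887824-17893952 (plus strand) are neighbours that are transcribed away from each other. All 10 are protein-coding, and counts were summed over the exons of each gene. Fpr2 shares 48 exon bases with Fpr3 on the same strand, and 82 of its 1295 50-mers (6.33%) also occur in Fpr3, which was at 0 counts in every library. The split of Fpr2 reads is uncertain for that stretch. Fpr1 and Fpr2 share 1 50-mer with each other. Anxa2, Anxa4 and Anxa11 share 98, 75 and 113 exon bases with genes on the opposite strand, and Anxa3 shares 112 with Gm42603 on the same strand. None of these overlapping genes exceeded 52 counts in any library.

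The start regions of 4 members are shown because the results turn on their levels. They are the 250 bases upstream of the RefSeq start on GRCm38.p6, 5′ to 3′ on the gene's strand, from chr19:20390672-20390921 (Anxa1, minus), chr9:69453433-69453682 (Anxa2, plus), chr17:17883940-17884189 (Fpr1, minus) and chr17:17887574-17887823 (Fpr2, plus). Capitals mark matches, on either strand, to 4 motifs. The TATA box was searched as TATAAA and the C/EBP motif as TTGCNNAA. The AP-1 motif was searched as TGANTCA and the core of ETS factors such as PU.1 as AGGAAG.
Anxa1: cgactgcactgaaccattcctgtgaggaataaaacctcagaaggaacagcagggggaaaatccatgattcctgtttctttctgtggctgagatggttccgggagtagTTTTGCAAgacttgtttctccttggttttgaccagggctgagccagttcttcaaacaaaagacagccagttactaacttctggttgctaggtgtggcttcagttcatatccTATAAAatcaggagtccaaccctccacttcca
Anxa2: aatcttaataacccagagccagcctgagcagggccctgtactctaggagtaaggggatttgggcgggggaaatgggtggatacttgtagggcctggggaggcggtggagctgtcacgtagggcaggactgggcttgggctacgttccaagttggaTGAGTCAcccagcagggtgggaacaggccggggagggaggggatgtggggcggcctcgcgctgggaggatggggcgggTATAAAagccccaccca
Fpr1: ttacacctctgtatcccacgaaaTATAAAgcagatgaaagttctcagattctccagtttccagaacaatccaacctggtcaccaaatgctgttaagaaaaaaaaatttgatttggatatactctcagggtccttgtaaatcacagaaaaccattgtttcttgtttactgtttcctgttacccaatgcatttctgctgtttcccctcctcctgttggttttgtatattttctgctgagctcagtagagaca
Fpr2: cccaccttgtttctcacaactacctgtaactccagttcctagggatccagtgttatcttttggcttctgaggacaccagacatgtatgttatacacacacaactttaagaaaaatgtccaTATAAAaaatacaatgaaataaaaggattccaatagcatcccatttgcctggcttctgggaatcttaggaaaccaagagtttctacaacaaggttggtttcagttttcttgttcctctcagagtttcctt
Anxa1 held TATAAA 32 to 27 bases upstream of its start and a C/EBP match on the reverse strand 143 to 136 bases upstream. Anxa2 held TATAAA 17 to 12 bases and an AP-1 match 95 to 89 bases upstream. The TATAAA of Fpr1 lay 227 to 222 bases and that of Fpr2 130 to 125 bases upstream. No marked letters overlapped. The RefSeq starts used for Anxa1 and Anxa2 lie inside the GENCODE gene models given above. The Anxa1 window lies wholly and the Anxa2 window partly within its gene model. Among 32536 promoters of the same length, 12.3% held the TATA box letters, 9.6% the C/EBP letters, 6.7% the AP-1 letters and 29.6% the ETS core. A promoter was found in RefSeq for 8 of the 10 members.

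Total counts ranged from 19239531 to 43814403 per library. The inflamed skin libraries (19239531 to 22528895) were all shallower than the inflamed joint libraries (35554698 to 43814403), so site and depth cannot be told apart. The study's methods name homogenization for joint tissue and longer light bursts for joints than for ear pinnae. Site cannot be told apart from this handling either. Levels are given as CPM, the counts relative to each library's total after TMM normalization, on which 3 counts correspond to 0.0616 to 0.18, a floor that covers counting error only. Ptprc, which encodes CD45, was at 1156 to 2531 CPM in all 18 libraries. Summed neutrophil markers (7 genes) reached 5142 to 15992 CPM in joint nonmigrated and 1584 to 2601 in skin nonmigrated cells, against 13.4 to 89.8 in the migrated groups. Monocyte and macrophage markers (9 genes) summed to 3953 to 10680 CPM in the nonmigrated groups and 304 to 557 in the migrated groups. Migratory dendritic cell markers (7 genes) went the other way, with 108 to 1747 CPM in nonmigrated and 2778 to 7890 in migrated cells. Fibroblast markers (6 genes) were at 60.0 to 362 CPM in nonmigrated cells and at most 2.17 in migrated cells, and keratinocyte markers (6 genes) at 27.4 to 329 CPM in skin nonmigrated cells. Joint migrated replicate 1 stood apart with the lowest dendritic cell sum of its group (2778 against 6213 and 7307 CPM), as did skin nonmigrated replicate 3 with 408 CPM against 1148 and 1747.

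**Figure D1:**
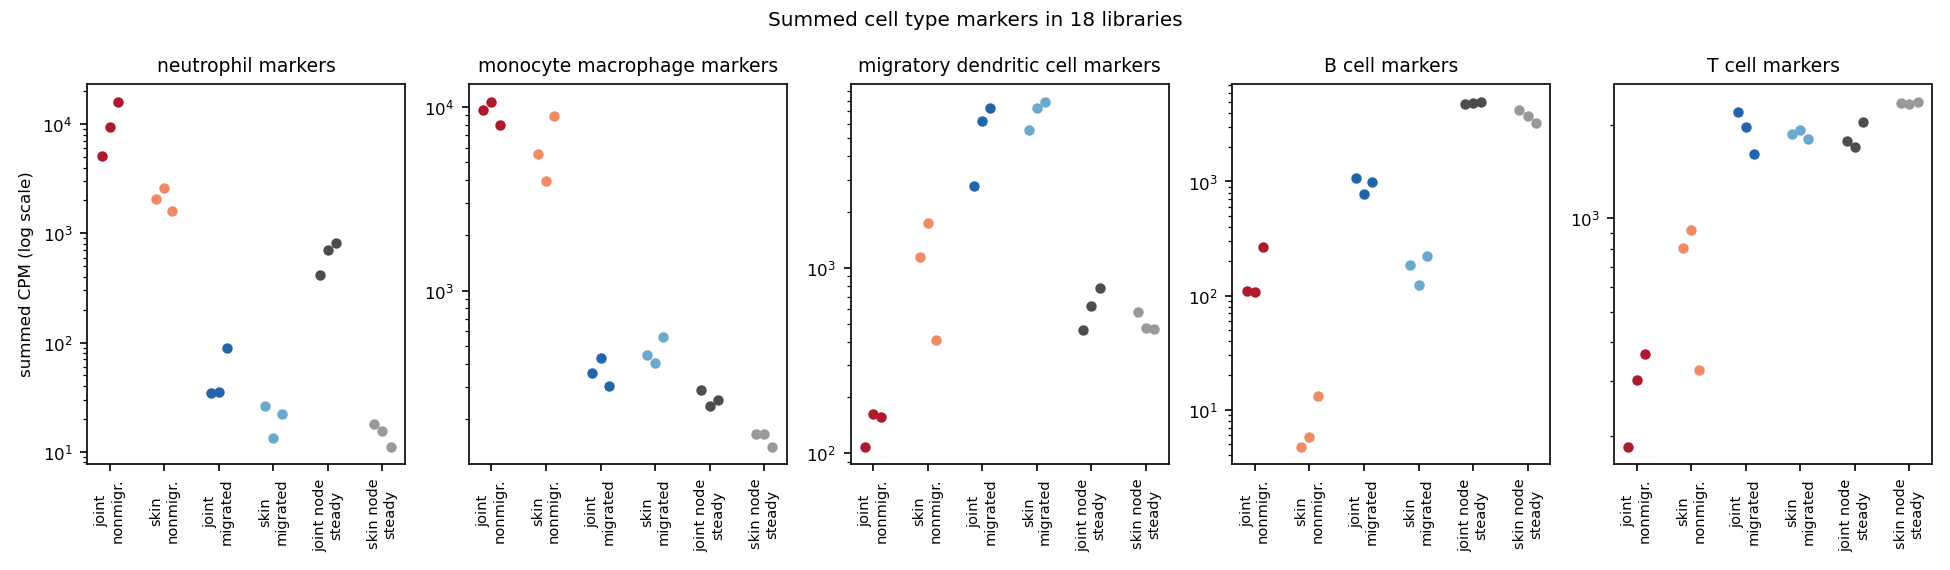
Summed CPM (log axis) of 5 cell type marker lists in the 18 libraries, 1 point per library, by group. Neutrophil and monocyte or macrophage sums were highest in the nonmigrated groups, and migratory dendritic cell sums in the inflamed migrated groups.

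Cells that had left the inflamed joint carried far less Anxa1, Fpr1 and Fpr2 RNA than cells that had stayed, whereas Anxa3 was higher. Of the 10 members, 6 were lower and 1 higher in joint migrated than in joint nonmigrated cells by edgeR's quasi-likelihood test, at a Benjamini-Hochberg adjusted p below 0.05 and an absolute log2 fold change above 1. Of all 16777 genes tested, 34.3% were called by the same rule, 18.4% lower and 16% higher. The median log2 fold change was -1.35 over the members and 0.02 over all genes.

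Anxa1 was at 900, 1111 and 1267 CPM in the joint nonmigrated libraries and at 37.1, 29.5 and 27.4 CPM in the joint migrated libraries. The groups did not overlap, but the share of all genes without overlap was not counted, here or in the comparisons below. The fitted log2 fold change was -5.12 (SE 0.233, adjusted p = 8.43e-08), 34.9-fold lower in migrated cells. In skin, Anxa1 was at 303, 196 and 298 CPM in nonmigrated and 31.3, 23.1 and 26.9 CPM in migrated cells, with a log2 fold change of -3.30 (SE 0.216, adjusted p = 4.37e-07). The migrated libraries of both sites overlapped in Anxa1, while the nonmigrated libraries of the joint all lay above those of the skin.

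The receptors moved with Anxa1. Fpr1 was at 32.7, 48.1 and 76.6 CPM in joint nonmigrated cells and at 0.185, 0.374 and 0.729 CPM (9, 16 and 34 counts) in joint migrated cells. It fell by 6.92 on the log2 scale (SE 0.484, adjusted p = 8.38e-07). Fpr2 was at 73.7, 105 and 150 CPM in joint nonmigrated cells and 0.575, 1.0 and 2.25 CPM in joint migrated cells, with a log2 fold change of -6.42 (SE 0.452, adjusted p = 8.92e-07). Neither receptor overlapped between the groups. In skin the fitted changes were -7.32 (SE 0.514) for Fpr1 and -6.53 (SE 0.462) for Fpr2, with skin nonmigrated levels of 56.6, 92.4 and 68.5 CPM for Fpr1 and 145, 206 and 147 CPM for Fpr2. The skin migrated libraries held 13, 5 and 11 counts of Fpr1 and 44, 35 and 36 counts of Fpr2. The neutrophil and the monocyte and macrophage marker sums were lower in the same migrated groups, and their part in the differences of Anxa1, Fpr1 and Fpr2 was not tested.

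**Figure D2:**
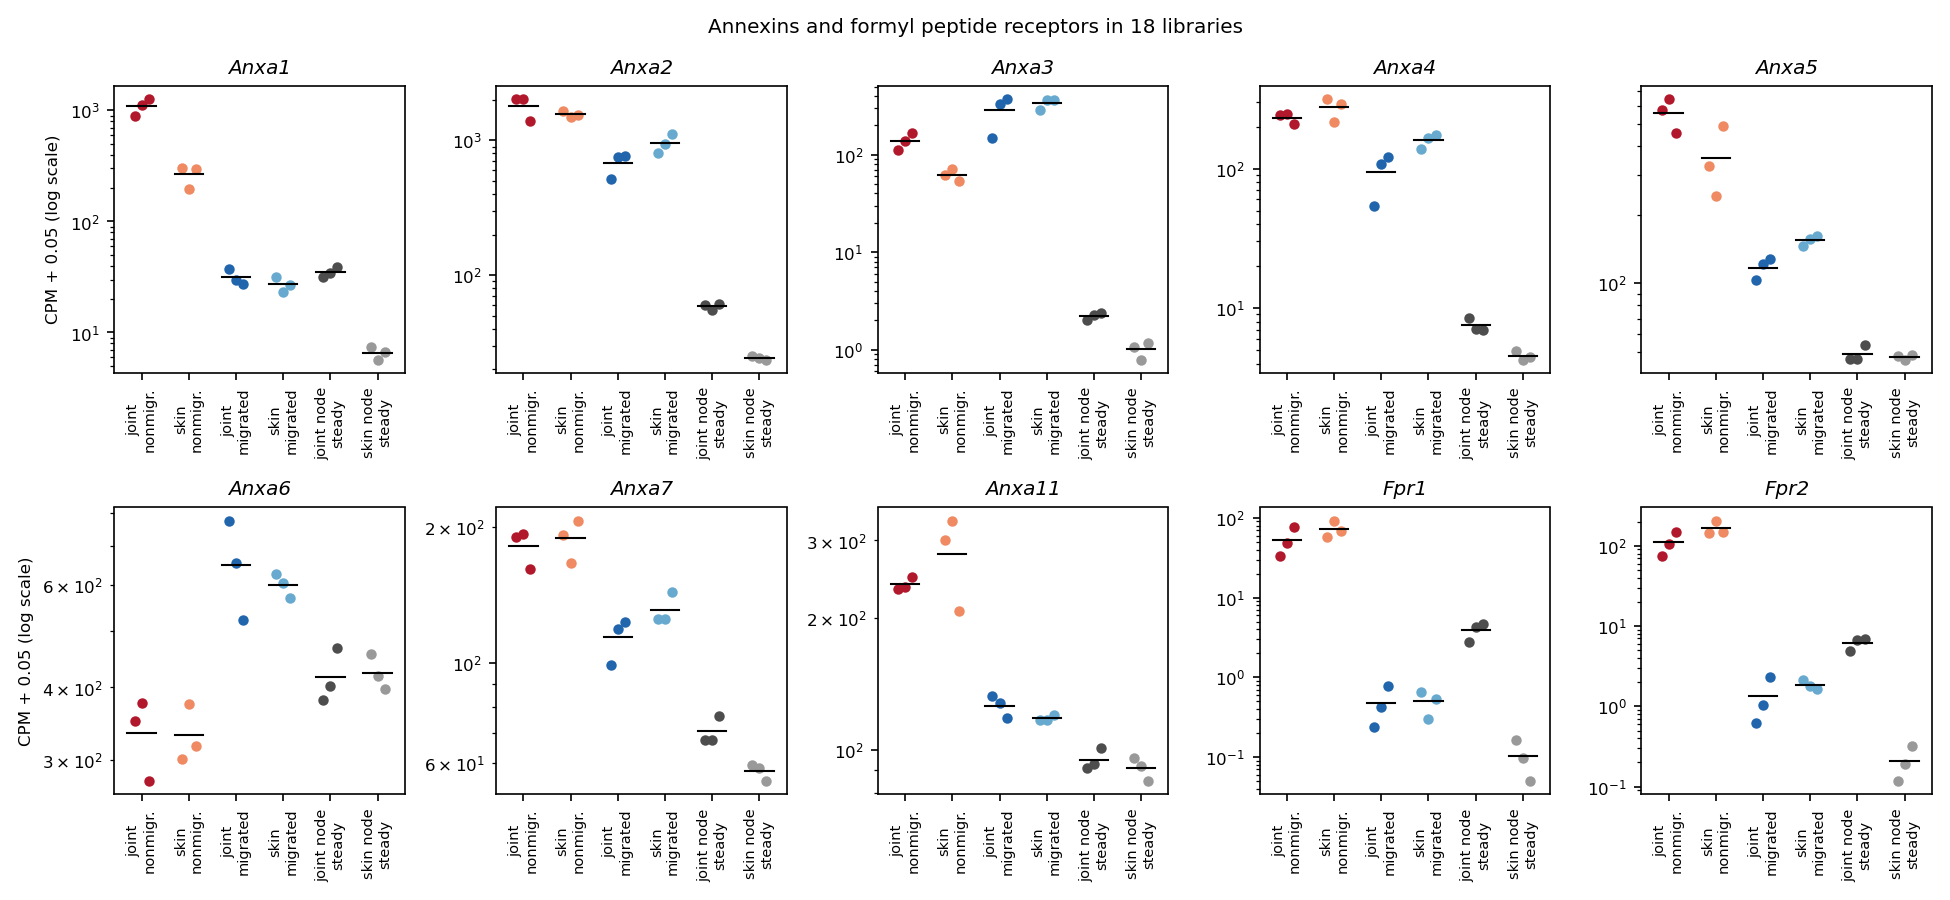
CPM plus 0.05 (log axis) of the 10 members in the 18 libraries, 1 point per library, with the group mean as a bar. Anxa1, Fpr1 and Fpr2 were highest in the nonmigrated groups, Anxa3 in the migrated groups, and Anxa2 and Anxa4 lowest in the steady-state nodes.

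Among the other annexins, Anxa2 was at 2014, 2029 and 1400 CPM in joint nonmigrated and 514, 756 and 772 CPM in joint migrated cells (log2 fold change -1.41, SE 0.198, adjusted p = 0.000104). Anxa5 was at 574, 644 and 456 CPM against 103, 121 and 128 CPM (log2 fold change -2.25, SE 0.225, adjusted p = 8.73e-06). Both were lower in every migrated library than in any nonmigrated one. The same held for Anxa4, and for Anxa7 and Anxa11, which were not called. Anxa6, also not called, was higher in every migrated library. Anxa4, another phospholipid-binding member, was at 241, 247 and 209 CPM against 53.9, 108 and 121 CPM (log2 fold change -1.30, SE 0.253, adjusted p = 0.00108). Without joint migrated replicate 1, which held the lowest Anxa4 level, the change of Anxa4 was -1.0 and still called.

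Anxa3 was the member called higher in migrated cells. It was at 111, 138 and 168 CPM in joint nonmigrated and 149, 332 and 372 CPM in joint migrated cells, and the groups overlapped through joint migrated replicate 1. The log2 fold change of 1.03 (SE 0.285, adjusted p = 0.00903) stood just past the threshold and was 1.35 without that library. It was under 1 without joint nonmigrated replicate 1 (0.89), joint migrated replicate 2 (0.91) or joint migrated replicate 3 (0.82), and with the replicate block (0.95). In skin the difference was larger, with 61.8, 70.5 and 53.2 CPM in nonmigrated and 284, 366 and 362 CPM in migrated cells (log2 fold change 2.44, SE 0.298, adjusted p = 3.81e-05). The migratory dendritic cell sum was higher in the same migrated groups and lowest among them in joint migrated replicate 1. Its part in the Anxa3 difference was not tested.

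Anxa6, Anxa7 and Anxa11 differed by less than the fold threshold in the joint. Anxa6, the annexin with a duplicated core, was at 350, 376 and 276 CPM in joint nonmigrated and 775, 655 and 523 CPM in joint migrated cells (log2 fold change 0.97, SE 0.164, adjusted p = 0.000398). The value was 1.13 without joint migrated replicate 3 and 1.06 without joint nonmigrated replicate 2, which put it past the threshold. Anxa7 gave -0.68 (adjusted p = 0.000664) and Anxa11 -0.92 (adjusted p = 0.000293).

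In skin, 5 members were lower and 1 higher in migrated cells (Anxa1, Anxa5, Anxa11, Fpr1 and Fpr2 lower, Anxa3 higher), beside 35.4% of all genes called, 19.7% lower and 15.7% higher. The median was -0.99 over the members and 0.01 over all genes. Anxa11 was at 301, 333 and 207 CPM in skin nonmigrated and 117, 117 and 120 CPM in skin migrated cells (log2 fold change -1.26, SE 0.15, adjusted p = 3.2e-05). Anxa5 was at 327, 242 and 489 CPM against 145, 157 and 162 CPM, with a log2 fold change of -1.19 (adjusted p = 0.000695) that became -0.88 and lost its call without skin nonmigrated replicate 3. Anxa2 (-0.71, adjusted p = 0.00854), Anxa4 (-0.79, adjusted p = 0.0182), Anxa6 (0.85, adjusted p = 0.000915) and Anxa7 (-0.53, adjusted p = 0.00324) differed by less than the fold threshold.

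**Figure D3:**
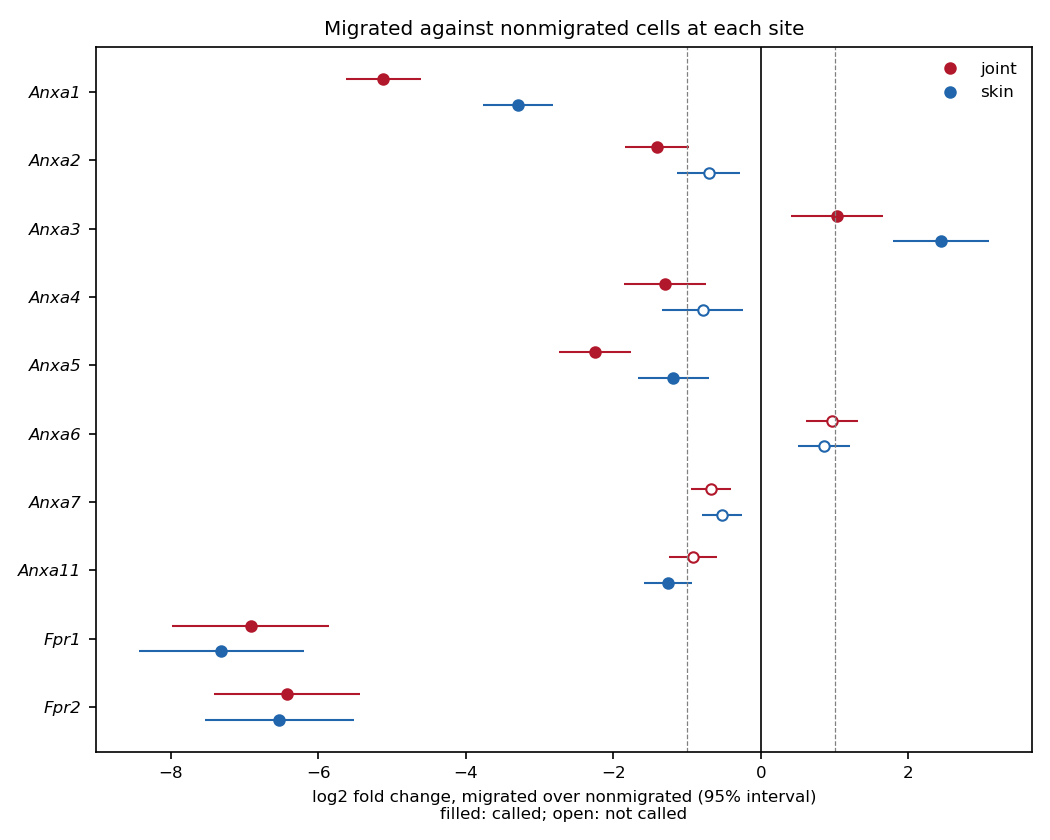
Log2 fold change of migrated over nonmigrated cells for the 10 members in joint and skin, with 95% intervals of the edgeR fit. Filled points were called and open points were not. Fpr1, Fpr2 and Anxa1 lay farthest to the left at both sites and Anxa3 farthest to the right.

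The Anxa1 difference was larger in joint than in skin, though site cannot be told apart from library depth or tissue handling. By construction, comparing it between sites combines the joint-to-skin differences of nonmigrated (2.04) and migrated cells (0.21). The migration change (migrated over nonmigrated) was lower in joint than in skin by 1.83 on the log2 scale, an interaction of -1.83 (SE 0.281, adjusted p = 0.00421), and Anxa1 was the 1 member of 10 called, beside 6.13% of all genes (2.17% lower, 3.96% higher). It was -1.94 without joint migrated replicate 1 and -1.92 without skin nonmigrated replicate 3. Anxa3 (-1.41, SE 0.402, adjusted p = 0.0541) and Anxa5 (-1.06, SE 0.305, adjusted p = 0.0557) missed the threshold. Both were called by the DESeq2 Wald test (adjusted p = 0.0123 and 0.015). The count of members called was 3 without skin nonmigrated replicate 3 and 2 without joint migrated replicate 1. Calls over all genes also rose, from 1029 to 1756 with DESeq2 and to 2610 without skin nonmigrated replicate 3. For Fpr1 and Fpr2 the interaction was 0.40 (95% interval -1.13 to 1.92) and 0.11 (-1.15 to 1.37), intervals that leave room for a difference of more than 1 in either direction.

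Among cells that had stayed in the tissue, 2 members were higher in joint than in skin, beside 14.3% of all genes called (5.45% higher, 8.86% lower). Anxa1 was 4.11-fold higher in the joint (log2 fold change 2.04, SE 0.204, adjusted p = 9.3e-05), and Anxa3 2.24-fold higher (1.17, SE 0.287, adjusted p = 0.012). No library of one site overlapped with the other for either gene. The formyl peptide receptors did not share that direction, at -0.47 (95% interval -1.24 to 0.30) for Fpr1 and -0.60 (-1.36 to 0.16) for Fpr2, neither called. The neutrophil sum was higher in every joint than in any skin nonmigrated library. Markers of immature granulocytes (7 genes, among them Mpo and Elane, which encode granule enzymes) summed to 4073 to 13699 CPM in joint and 16.6 to 57.6 CPM in skin nonmigrated cells, with Elane at the floor in skin. Their part in the Anxa1 and Anxa3 differences was not tested.

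Among cells that had left, none of the 10 members was called between joint and skin by edgeR at an adjusted p below 0.05, beside 1.14% of all genes (0.56% higher and 0.578% lower in joint). At an unadjusted p below 0.05, Anxa2 (-0.49, 95% interval -0.92 to -0.07) and Anxa4 (-0.75, -1.30 to -0.20) were lower in joint. Without joint migrated replicate 1 these values were -0.31 and -0.45. DESeq2's Wald test likewise called 0 members. The Anxa1 difference of 0.21 had an interval of -0.22 to 0.65, which leaves no room for a difference of the size seen between the nonmigrated groups. For Fpr1 the interval was wide (-1.39 to 1.24) at these low counts.

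Per kilobase of exon, which allows genes to be compared, the make-up of annexin RNA differed between the groups. In joint nonmigrated cells Anxa2 made up 33.0% ± 4.55 (SD, n = 3) of the summed CPM per kb of the 8 annexins, Anxa1 25.9% ± 5.92 and Anxa5 21.3% ± 1.89. In joint migrated cells the Anxa1 share was 1.73% ± 0.423 and that of Anxa6 35.7% ± 9.38, with Anxa3 at 12.2% ± 4.54. Anxa6 led in the steady-state nodes, with 60.6% ± 1.12 in the joint node and 67.9% ± 0.825 in the skin node. The summed level was 1466 ± 129 CPM per kb in joint nonmigrated, 998 ± 81.4 in skin nonmigrated, 629 ± 49.2 in joint migrated and 736 ± 52.3 in skin migrated cells, and 234 ± 21.2 and 213 ± 12 in the joint and skin nodes at steady state. The sum was highest in cells that stayed in the tissue and lowest at steady state.

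**Figure D4:**
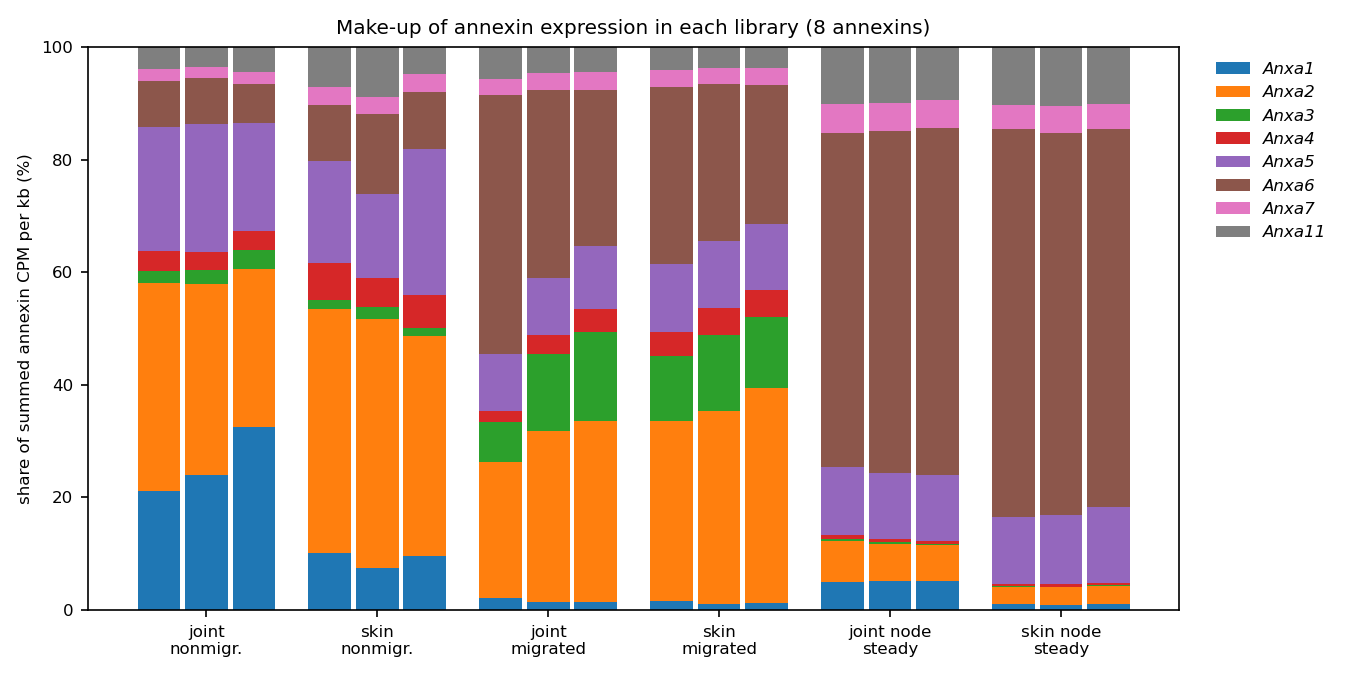
Share (%) of each of 8 annexins in their summed CPM per kb of exon, 1 stacked bar per library. Anxa1 took 21.16% to 32.5% in joint nonmigrated libraries and at most 5.2% in migrated and steady-state libraries, where Anxa6 took 24.77% to 68.77%.

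The lymph node libraries compare inflamed migrated cells with the steady-state groups. Because the color gate of the steady-state cells is uncertain, inflammation cannot be told apart from how the cells were gated and handled in these comparisons. B cell markers (7 genes) summed to 3237 to 4993 CPM in both steady-state groups and to 123 to 1069 CPM in the inflamed migrated groups. In the joint-draining node, 4 members were higher and 2 lower in inflamed migrated cells than in the steady-state group, beside 24.2% of all genes called (16.9% higher, 7.31% lower). The joint migrated libraries are the same as in the comparison with joint nonmigrated cells, so both sets of values share them. Anxa3 was at 1.96, 2.23 and 2.33 CPM at steady state and at 149, 332 and 372 CPM in the joint migrated libraries, and the log2 difference was 7.06 (SE 0.331, adjusted p = 4.76e-09). Anxa4 was at 8.43, 7.04 and 6.95 CPM at steady state (log2 fold change 3.69, SE 0.244) and Anxa2 at 60.2, 55.3 and 60.8 CPM (3.57, SE 0.166). Anxa5 was 2.45-fold higher. These 4 annexins did not overlap between the groups, but neither did Anxa6, Anxa7 and Anxa11, which were not called. The share of all genes without overlap was not counted. Fpr1 was at 2.74, 4.22 and 4.55 CPM at steady state and was lower in inflamed migrated cells (log2 fold change -3.12, SE 0.476, adjusted p = 0.000116), as was Fpr2 (-2.23, SE 0.408, adjusted p = 0.000508). The neutrophil marker sum was 418 to 821 CPM in the steady-state joint node and 34.5 to 89.8 CPM in joint migrated cells, and its part in the receptor differences was not tested. Anxa1 was at 31.3, 34.3 and 39.0 CPM at steady state, and its difference of -0.12 had a 95% interval of -0.44 to 0.20.

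In the skin-draining node, 8 members were higher and none lower in inflamed migrated cells than in the steady-state group, with the same uncertainty about the gate, beside 36.5% of all genes called (21.5% higher, 15% lower). Anxa3 was at 0.741 to 1.13 CPM at steady state (log2 fold change 8.50, SE 0.362), Anxa2 at 25.3, 24.4 and 23.6 CPM (5.33, SE 0.181) and Anxa4 at 4.87, 4.22 and 4.37 CPM (5.18, SE 0.264). Anxa1 was at 7.38, 5.65 and 6.57 CPM and was 4.24-fold higher in inflamed migrated cells (2.08, SE 0.161, adjusted p = 1.32e-07). Anxa5 and Anxa7 were 3.34-fold and 2.33-fold higher, and Anxa6 (0.53) and Anxa11 (0.40) differed by less than the fold threshold. Fpr1 had 5, 2 and 0 counts in the steady-state skin node libraries and Fpr2 3, 6 and 9. Their fitted changes of 2.94 (adjusted p = 0.00362) and 3.56 (adjusted p = 7.34e-05) rest on those few reads and depend on the prior count of the fit.

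**Figure D5:**
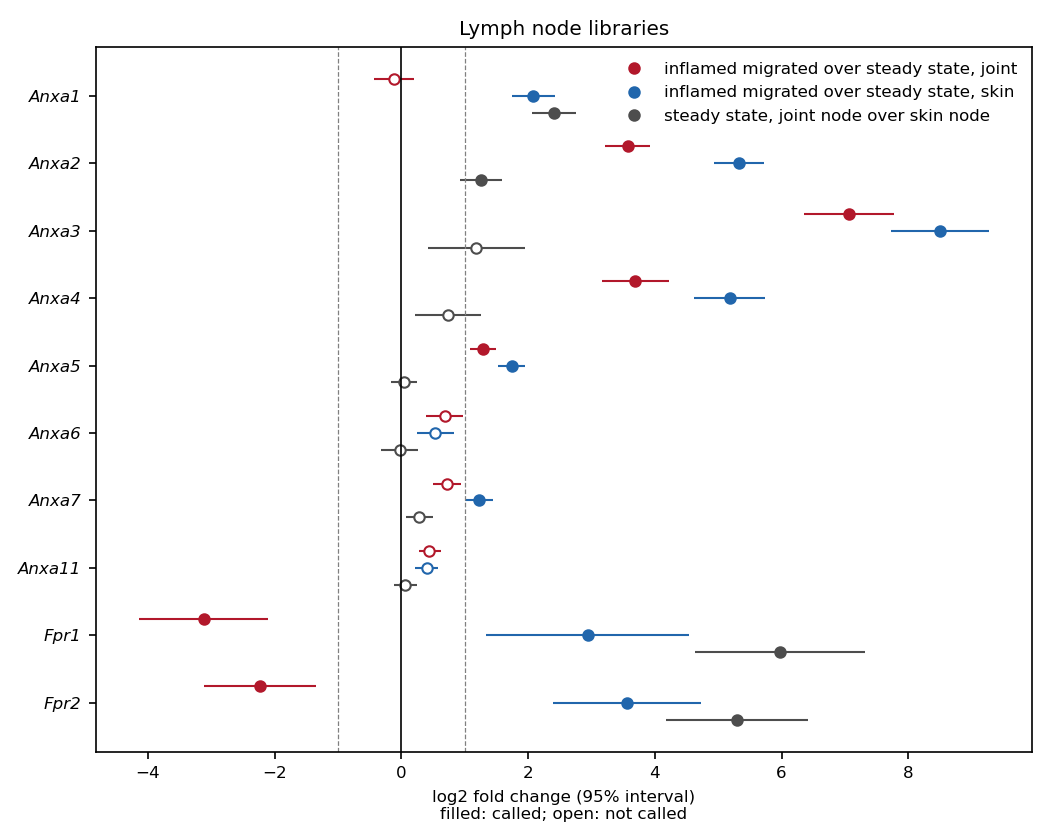
Log2 fold changes of the 10 members among lymph node libraries, with 95% intervals: inflamed migrated over steady state for joint and skin, and joint node over skin node at steady state. Filled points were called. Anxa2, Anxa3 and Anxa4 lay to the right at both sites, while Fpr1 and Fpr2 lay on opposite sides of 0 for joint and skin.

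The steady-state groups were also compared with each other. Their titles differ (PBS and KG for joint, Naive for skin), so site cannot be told apart from how the mice were handled or the cells gated. Of the members, 4 were higher in the joint than in the skin node and none lower, beside 3.89% of all genes called (3.23% higher). Anxa1 was 5.3-fold higher (log2 fold change 2.41, SE 0.161, adjusted p = 2.34e-06) and Anxa2 2.39-fold higher (1.26, SE 0.155, adjusted p = 0.000189). Fpr1 (5.98, adjusted p = 5.62e-05) and Fpr2 (5.29, adjusted p = 3.74e-05) had the widest fitted differences. Fpr1 had 123, 172 and 205 counts in the joint node and 5, 2 and 0 in the skin node, a mean of 0.0528 CPM, so its fitted value depends on the prior count. It ranged from 5.52 without skin node replicate 3 to 7.01 without skin node replicate 1, and that of Fpr2 from 4.90 to 5.85. Anxa3 (1.18, adjusted p = 0.0617) was not called, but was called in 7 of 20 alternative settings, among them the DESeq2 Wald test, no filter on low counts and a fit of these groups alone. The neutrophil marker sum was 418 to 821 CPM in the joint node and 11.1 to 17.9 CPM in the skin node, with Ly6g, which encodes the defining surface protein of neutrophils, at the floor in the latter. Its part in these differences was not tested.

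The difference between inflamed migrated and steady-state cells was itself lower in joint than in skin for 5 members, beside 6.11% of all genes called (3.78% lower). This comparison was added after the separate node comparisons had been seen. The differences were -2.20 (SE 0.219, adjusted p = 8e-05) for Anxa1, -1.76 (SE 0.215) for Anxa2, -1.49 (SE 0.324) for Anxa4, -6.06 (SE 0.872) for Fpr1 and -5.80 (SE 0.679) for Fpr2. By construction they combine the steady-state difference of the nodes with the difference of the inflamed migrated groups, and the latter was called for no member. The handling of the steady-state groups differs with site and cannot be told apart from it. Without joint migrated replicate 1 the count of members called was 6, with Anxa3 added (-1.13).

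The order of the group means differed among members. Anxa1, Fpr1 and Fpr2 had both nonmigrated groups first, the joint node at steady state next and the skin node at steady state last. For Anxa1 the joint node at steady state overlapped with joint migrated cells, and these with skin migrated cells. Anxa2, Anxa4, Anxa5 and Anxa7 had both nonmigrated groups first, then skin migrated, joint migrated, joint node and skin node, and the nonmigrated groups overlapped with each other. Anxa11 had the same order except that joint migrated and skin migrated cells, which overlapped, changed places. Anxa3 and Anxa6 had both migrated groups first, overlapping with each other. Below these, Anxa3 had the nonmigrated groups and then the nodes, and Anxa6 the nodes and then the nonmigrated groups.

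Genes with the most similar pattern were sought by Pearson correlation of log2(CPM + 1) over the 18 libraries among 18156 genes. The libraries fall into 6 groups and share their group means. Nearest to Anxa1 were Abcd2 (r = 0.982), Arhgap23 (0.982) and Tppp3 (0.981). Nearest to Anxa2 were Anxa4 (0.993), Dennd5a (0.992) and Cdc42bpb (0.991). Nearest to Anxa6 were Actg2 (0.952), Tmprss13 (0.946) and Ccr10 (0.942). Fpr1 was nearest to Fpr2 (0.995), C5ar1 (0.989) and Mgst1 (0.988), and Fpr2 to Fpr1 (0.995), Clec4e (0.994) and Clec4d (0.993). Anxa1 correlated with Fpr1 at 0.91 and with Fpr2 at 0.92, and Anxa6 with Fpr1 at -0.77.

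Related genes were described from lists chosen by function, to be read beside the 18.4% of all genes called lower and 16% called higher in joint migrated than in joint nonmigrated cells, and the 19.7% called lower in skin. Of 4 further annexins, 2 passed the filter on low counts and both were lower in joint migrated than in joint nonmigrated cells, Anxa8 with 17.9, 10.7 and 7.07 against 0.308, 1.96 and 1.67 CPM (log2 fold change -3.18) and Anxa9 (-2.16). Of 5 further formyl peptide receptor genes none passed the filter, and Fpr3 was at 0 counts throughout. All 8 other chemoattractant receptors were lower in joint migrated cells, with a median of -4.14, and all 8 in skin, with a median of -4.82. Among them, Ltb4r2 was near the floor, with 8, 3 and 7 against 1, 0 and 1 counts in joint. In skin it had 9, 10 and 11 against 0, 1 and 0 counts. It passed the filter on low counts through skin nonmigrated cells, where it was highest, so its direction in skin carries little weight. C3ar1, the receptor for complement fragment C3a, was at 1008, 778 and 533 CPM in joint nonmigrated and 0.472, 1.59 and 3.28 CPM in joint migrated cells (-8.76, SE 0.791). C5ar1, the C5a receptor (-6.96), and Cmklr1, the chemerin receptor (-5.82), followed.

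Of 7 annexin binding partners, 3 were lower in joint migrated cells and none higher, beside 18.4% and 16% of all genes: S100a6 (-1.65), Ahnak (-1.40), a large scaffold protein that binds the Anxa2 complex, and S100a11 (-1.07), a partner of Anxa1. The value for S100a11 was -0.95, no longer called, without joint migrated replicate 1. S100a10, the partner of Anxa2, was at 719, 701 and 437 CPM against 399, 292 and 274 CPM and was not called. Against the steady-state node, 5 of 7 partners were higher in joint migrated cells, beside 16.9% of all genes, and 6 of 7 in skin migrated cells, beside 21.5%.

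Of 12 genes of signalling downstream of formyl peptide receptors, 1 was higher and 2 lower in joint migrated cells, no larger a share than the 34.3% of all genes called. Prex1, a Rac activator, was at 405, 419 and 411 CPM in nonmigrated and 749, 1197 and 1156 CPM in migrated cells (1.33, SE 0.179). Pik3r6, a regulatory subunit of PI3-kinase gamma, fell by 3.21 and Plcb3, a phospholipase C, by 1.40. The other 9 of the 12 were not called.

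Of 10 glucocorticoid-responsive genes, 5 were lower in joint migrated cells and none higher, beside 18.4% and 16% of all genes, led by Cd163, a scavenger receptor of macrophages (-5.89, SE 0.983), Sgk1, a kinase (-2.00), and Dusp1, a MAP kinase phosphatase (-1.89). The other 5 of that list were not called, and the list's median was -0.80. Of these 5, Fkbp5 went the other way, with 40.4, 47.1 and 53.5 CPM in joint nonmigrated and 90.9, 83.7 and 76.8 CPM in joint migrated cells. The mean of Hsd11b1 was also higher in migrated cells (68.7 against 35.6 CPM), while the means of Nr3c1, Tsc22d3 and Per1 were lower. In skin nonmigrated cells Cd163 was at 20.4, 7.13 and 163 CPM, highest in replicate 3. Of 10 membrane repair genes, 4 were lower in joint migrated cells, beside 18.4% of all genes, led by Myof, a ferlin (-4.48, SE 0.447). Ahnak is 1 of these 4 and is also counted among the binding partners. Trim72 (-1.51, adjusted p = 0.0414), a repair protein of muscle, stood at 11, 10 and 17 against 2, 7 and 9 counts and lost its call in 11 of 20 alternative settings.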

How the data were processed

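The authors sorted CD45+ Kaede Red+ cells, sequenced paired reads, trimmed them with Trim Galore, aligned them with TopHat2 to mm10 and deposited raw counts per gene, as described in the study and per the labels. From these deposited counts, 5 summary rows were removed (unassigned, ambiguous and multiply aligned reads, the last at 9.243% to 12.745%), and 49326 of 49585 gene IDs matched GENCODE M21. Libraries of one group differed beyond sampling noise (chi-square per degree of freedom 14.67 to 117.05). Genes were tested with edgeR 4.0.16 (R 4.3.3; quasi-likelihood F test, TMM, filterByExpr with a minimum count of 10) on the 12 inflamed or the 12 node libraries, and a call needed a Benjamini-Hochberg adjusted p below 0.05 and an absolute log2 fold change above 1, the threshold of the study's methods. Standard errors were derived from each fold change and its F statistic. The test was checked on simulated counts. Alternatives included DESeq2 1.42.0. Named genes are all 10 members, up to 3 called genes per list and direction with the largest change in the joint, and the 3 most correlated genes of 5 members. S100a10, Fpr3 and the genes of marker lists were named beside them. The members, lists and tests were chosen with earlier results of these data known, and the site difference of the inflammation change was added after seeing the data. Replicate numbers were not taken to pair the samples: same-numbered deviations correlated at 0.02, 0.25 and 0.20 in joint and 0.17, 0.07 and 0.15 in skin, not all over 0.1, and the labels do not say whether mice are shared. Figures used matplotlib.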

Additional observations from a re-analysis of the deposited data

Results flagged for a closer look

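Of the results above, 7 differed between joint and skin by a test of the difference itself (edgeR's quasi-likelihood test, Benjamini-Hochberg adjusted). The rule here was an adjusted p below 0.05 without the fold threshold. It was passed by 1338 of 16777 genes for the migration change. For the difference between inflamed migrated and steady-state cells, added after the node comparisons had been seen, it was passed by 1724 of 17107. The migration change of Anxa1 was lower in joint by 1.83 on the log2 scale (-1.83, adjusted p = 0.00421), with 900 to 1267 CPM in the 3 joint nonmigrated and 196 to 303 CPM in the 3 skin nonmigrated libraries. The difference between inflamed migrated and steady-state cells was lower in joint for Anxa1 (-2.20, adjusted p = 8e-05), Anxa2 (-1.76, adjusted p = 0.000335), Anxa4 (-1.49, adjusted p = 0.0121), Fpr1 (-6.06, adjusted p = 0.00101) and Fpr2 (-5.80, adjusted p = 0.000244). Anxa7 passed the p threshold as well but not the fold threshold (-0.50, adjusted p = 0.0419). The neutrophil marker sum of the steady-state joint node libraries was 418 to 821 CPM and that of the skin node libraries 11.1 to 17.9 CPM, and its part in these differences was not tested. Inflamed joint and skin libraries also differ in depth and tissue handling, which cannot be told apart from site. The steady-state groups carry different titles (PBS and KG, or Naive). Single outlying values within groups of 3 libraries were not tested for. Joint migrated replicate 1 and skin nonmigrated replicate 3 stood apart in their marker sums, and single replicates were left out in turn.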

How the results depend on the processing

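Of 90 member results, 39 were called. Their 773 values under alternative settings kept direction and call in 761 cases, lost the call in 12 and reversed in 0. In 26 cases an uncalled result gained a call. At an adjusted p under 0.001 the counts over all genes were 3586 (joint migrated against nonmigrated), 3508 (skin), 511 (nonmigrated, joint against skin), 0 (migrated, joint against skin), 20 (migration change), 2714 (joint node), 246 (steady-state nodes) and 152 (inflammation change), against 5757, 5940, 2400, 191, 1029, 4143, 665 and 1045 in the reported fits, and members called were 1 between nonmigrated groups, 0 for the migration change and 3 for the inflammation change. Members called for the migration change were 3 with DESeq2, 3 with no filter and 3 with all 18 samples, and 1 to 3 when single replicates were left out. Over all genes, that change gave 1756 with DESeq2, 1664 with all 18 samples and 582 to 2610 without single replicates, the highest without skin nonmigrated replicate 3. Migrated cells of joint against skin gave 488 with DESeq2, 327 with no filter, 407 with all 18 samples and 58 to 328 without single replicates. Without single replicates the nonmigrated groups gave 1745 to 3720 and the inflammation change 695 to 1240, and the latter gave 666 with all 18 samples. The cause of these moves was not tested.

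The replicate block, for numbers not shown to pair the samples, left 2 members called for the migration change (Anxa3 added). In skin every sample correlated best with its own number, in the joint not every one. Reversals concerned uncalled results only: Anxa6 between nonmigrated groups was -0.002 with the stricter filter (10 counts or more throughout 1 group) and -0.003 with the block, and Fpr2 for the migration change -0.02 with the block. Leaving out single replicates gave, between nonmigrated groups, -0.08 to 0.13 for Anxa6 and -0.14 to 0.02 for Anxa7. Between migrated groups it gave -0.46 to 0.08 for Anxa3, -0.01 to 0.29 for Anxa6 and -0.67 to 0.32 for Fpr1. For the migration change it gave -0.01 to 0.29 for Anxa6, -0.19 to 0.79 for Fpr1 and -0.55 to 0.49 for Fpr2. Between steady-state nodes it gave -0.04 to 0.06 for Anxa5 and -0.13 to 0.02 for Anxa6, and for the inflammation change -0.003 to 0.34 for Anxa6. Low counts limit Fpr1 and Fpr2 in migrated and skin node libraries, where Fpr1 had 0 to 34 counts.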

Other observations

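Anxa6 was the annexin with the highest level per kb at steady state. In the skin node at steady state, Anxa6 was at 456, 419 and 398 CPM, where T cell markers (7 genes) summed to 2335 to 2374 CPM and B cell markers to 3237 to 4235 CPM. In joint nonmigrated cells, T cell markers summed to 184 to 367 CPM and Anxa6 was at 350, 376 and 276 CPM. In joint migrated cells Anxa6 was higher than in the skin node, at 523 to 775 CPM, with lower marker sums. There T cell markers summed to 1615 to 2208 CPM and B cell markers to 778 to 1069 CPM. The part of T and B cells in the Anxa6 levels was not tested.

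Endothelial markers (5 genes) summed to 60.1 to 260 CPM, platelet markers (4 genes) to 1.93 to 365 CPM, erythroid markers (4 genes) to 0.532 to 33.0 CPM and mast cell and eosinophil markers (5 genes) to 0.785 to 285 CPM over the 18 libraries. Platelet sums were 90.2 to 365 CPM in the nonmigrated groups and at most 8.4 CPM in the others.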
